A study of Mus musculus with 8 samples.

Results

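Sensory neurons of the dorsal root ganglion acquire and keep their subtypes through a small set of DNA-binding proteins, and 10 genes of that set are described here: Isl1, Pou4f1, Pou4f2, Pou4f3, Runx1, Runx3, Tlx3, Prdm12, Etv1 and Shox2. They were taken by gene symbol from the deposited table of moderated log2 CPM, that is, reads of a gene scaled to the library total, on a log2 scale with a small prior count. All 10 were found among the 40800 gene identifiers of the table, and all 10 were among the 15030 genes tested. Total RNA of dorsal root ganglia had been sequenced from 4 wild-type C57BL/6 mice and from 4 mice of that background with both copies of Tmem184b trapped, each at 6 months of age. Tmem184b encodes a transmembrane protein, and the trap cassette is built to splice into its transcript and so interrupt the full message. The labels state no sex, litter, spinal level or pooling, and do not limit the trap to a cell type. The column names of the table carry running numbers that form separate ranges in the mutants and wild types; their meaning is not given, and any batch they record cannot be told apart from genotype in the differences below. Samples are named by genotype and label number: wild types 1, 3, 4 and 8 and mutants 1, 2, 3 and 4.

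In the embryo, Isl1 and Pou4f1, homeodomain proteins shared by nearly all sensory neurons, end neurogenesis and switch on the genes of neuronal subtypes. Prdm12 and Tlx3 act in the lineages that give rise to pain, itch and temperature neurons, and Runx1 directs part of those neurons to the nonpeptidergic fate. Runx3 and Etv1 serve muscle-sense neurons, and Shox2 serves touch neurons that carry the receptor TrkB. Many of these factors stay on in the adult ganglion, where they maintain the expression of receptors and channels.

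Runx1 and Prdm12, both factors of the pain and itch lineages, fell in the mutant ganglia, to 75.5% and 78.5% of their wild-type levels. The other 8 members did not pass the test. Libraries held 6183618 to 7983821 reads, and the member genes had 62 to 1908 reads per library. Tmem184b, the trapped gene, was at 7.36 to 7.51 log2 CPM in wild type and 2.47 to 3.10 in the mutant, which matches the labels. The mutants kept 34 to 58 reads of it per library, and gene totals do not tell full message from interrupted message. The defining markers of ganglion neurons were abundant, with Prph at 10.66 to 10.90 log2 CPM and Avil at 9.74 to 10.06. Of the 15030 genes, 5.46% were called at an adjusted p under 0.05 by limma with Benjamini-Hochberg adjustment, 2.81% higher and 2.64% lower in the mutant. Higher genes made up 51.6% of the calls, and this share was 22.4% with samples centred on their medians, 39.1% with quantile normalization, 23.8% with the GC trend removed and 74.2% with samples centred on pan-neuronal genes. The median difference of all tested genes was 0.07 on the log2 scale; under these scalings it was -0.03, 0.00, -0.02 and 0.12. Xist, the RNA of the inactive X chromosome, lay at 7.72 to 8.25 log2 CPM in 5 libraries and low in wild type 3 (-0.89) and mutants 3 and 4 (-0.14 and 0.37), so the low level was seen in 1 wild type and 2 mutants. With Xist as a covariate Runx1 differed by -0.40 (limma adjusted p = 0.0112) and Prdm12 by -0.35 (0.0208). In whole ganglia, fewer cells of a type and less RNA per cell cannot be told apart.

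The sequences in front of the start sites of the members that fell, Runx1 and Prdm12, are shown first. RefSeq windows on GRCm38.p6 were found for 9 of the 10 members, 12 windows in all, with Runx1, Runx3 and Etv1 having more than a single start. The bases before the proximal start of Runx1 (chr16:92697330-92697579, minus strand) and before the start of Prdm12 (chr2:31639787-31640036, plus strand) read as follows, with every CG dinucleotide in capitals:
Runx1 proximal: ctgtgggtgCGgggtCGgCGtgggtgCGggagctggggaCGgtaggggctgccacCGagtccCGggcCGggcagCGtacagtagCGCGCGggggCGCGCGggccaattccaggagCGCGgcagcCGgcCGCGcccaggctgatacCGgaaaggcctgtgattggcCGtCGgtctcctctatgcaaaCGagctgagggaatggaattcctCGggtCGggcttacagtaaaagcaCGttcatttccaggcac
Prdm12: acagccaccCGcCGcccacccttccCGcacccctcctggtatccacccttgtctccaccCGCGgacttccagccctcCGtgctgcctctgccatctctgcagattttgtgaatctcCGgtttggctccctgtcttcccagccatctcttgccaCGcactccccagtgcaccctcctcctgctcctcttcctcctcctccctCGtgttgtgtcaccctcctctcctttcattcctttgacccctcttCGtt
The Runx1 window held 27 CG dinucleotides and the Prdm12 window 10, against a median of 6 over the 250 bases before 32851 starts. The Runx1 count exceeded that of 91.4% of the windows and the Prdm12 count that of 62.2%, so both were above the median. Such counts were not made for the other members or for the distal start of Runx1. The counts thus do not set apart the members that fell, and a link to their differences was not tested.

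Runx1 was called lower and Runx3 was not called, and these differences were not tested against each other. The distal starts of both genes share a stretch of letters. Each holds the core letters of the RUNX recognition motif, TGTGGT or ACCACA on the other strand, in tandem with 2 bases between them. They are printed with the cores in capitals, from chr16:92826027-92826052 (minus strand) and chr4:135120505-135120530 (plus strand):
Runx1 distal: taaacaACCACAgaACCACAagttgg
Runx3 distal: ccctcaACCACAgaACCACAaggcca
The core was found in 16.8% of the 32851 windows of 300 bases searched on both strands, and the tandem form in 7 of them. The tandem form, which was looked for after these sequences had been seen, began 28 bases after the RefSeq start in Runx1 and 134 bases before it in Runx3. A match is a description of letters, and the deposited gene totals do not tell the starts of a gene apart.

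**Figure D1:**
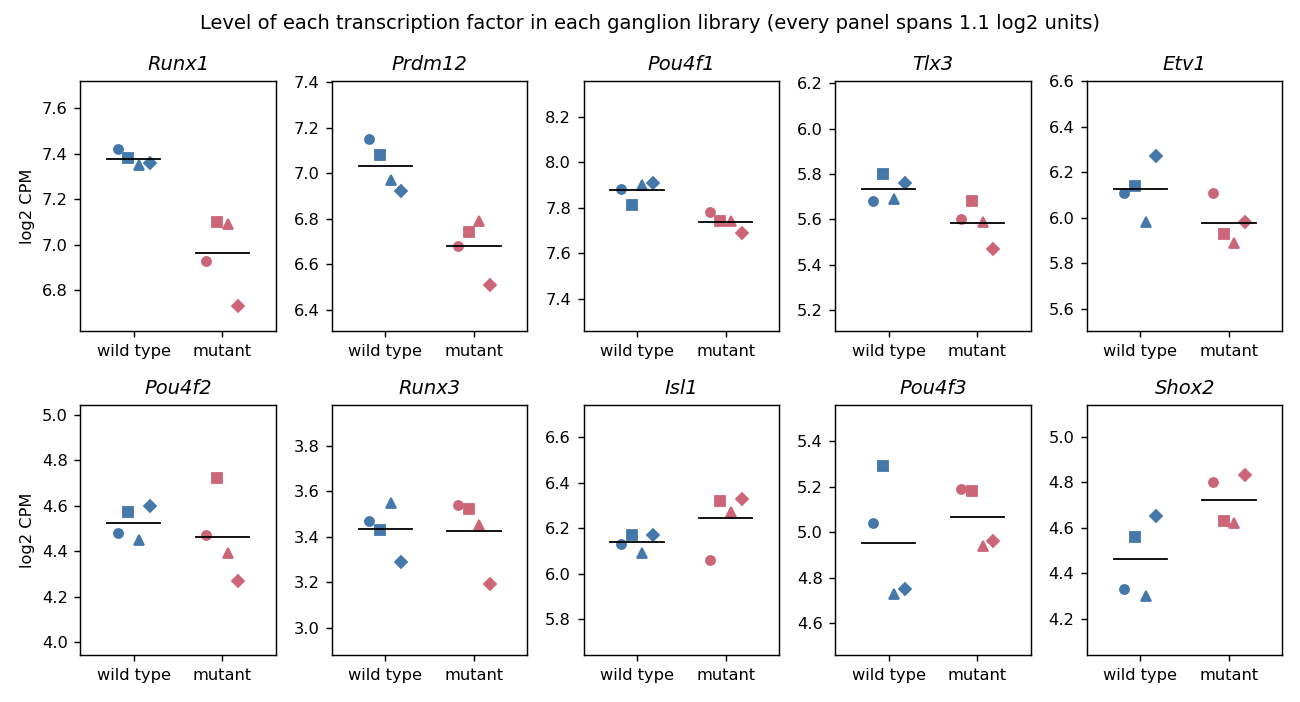
Log2 CPM of the 10 transcription factors in each library, by genotype, with the group mean as a line; circle, square, triangle and diamond stand for wild types 1, 3, 4 and 8 and for mutants 1, 2, 3 and 4. Every panel spans the same number of log2 units, and the mutant libraries of Runx1 and Prdm12 all lie below the wild types, while those of Isl1, Pou4f3, Runx3 and Pou4f2 spread across them.

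Runx1 (ENSMUSG00000022952; chromosome 16, 92601466 to 92826149, minus strand, in GRCm38) encodes the runt-domain factor that drives nonpeptidergic nociceptors and itch neurons away from the peptidergic fate. Its log2 CPM was 7.42, 7.38, 7.35 and 7.36 in wild types 1, 3, 4 and 8, and 6.93, 7.10, 7.09 and 6.73 in mutants 1 to 4. The 4 wild types were almost equal and the 4 mutants were all lower, with mutant 4 lowest. The mean went from 166 ± 3.40 to 125 ± 14.5 CPM (SD, n = 4 each). Mutant minus wild type, Runx1 thus differed by -0.41 in log2 CPM (SE 0.0744, limma adjusted p = 0.00567). With no trend of variance on level in the model, where 142 genes in all were called, the adjusted p of Runx1 was 0.0828, and in the other 21 alternatives it was called, with differences from -0.50 to -0.34. An antisense gene, Gm26626, overlaps Runx1 and had 1 to 4 reads per library.

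Prdm12 (ENSMUSG00000079466; chromosome 2, 31640037 to 31655795, plus strand) encodes a zinc finger protein needed to form nociceptors, and its loss in people causes congenital insensitivity to pain. The wild-type values of Prdm12, in the order 1, 3, 4 and 8, were 7.15, 7.08, 6.97 and 6.92 log2 CPM, and mutants 1 to 4 had 6.68, 6.74, 6.79 and 6.51. The groups did not overlap, although the highest mutant and the lowest wild type were close. The mean went from 131 ± 9.46 to 103 ± 8.60 CPM (SD, n = 4 each), a log2 difference of -0.35 (SE 0.0725; limma adjusted p = 0.0128). The limma adjusted p was 0.0505 without wild type 1 (difference -0.31), 0.0514 when samples were centred on pan-neuronal genes (-0.30), and 0.104 with no variance trend. The antisense gene Gm13425 shares 200 exonic bases with Prdm12 and had 29 to 57 reads per library against 634 to 1075 for Prdm12. The processing notes give no strand setting, so reads in the shared bases are uncertain.

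Pou4f1, also called Brn3a, binds beside Isl1 at the genes of nearly all sensory subtypes. Its log2 CPM was 7.88, 7.81, 7.90 and 7.91 in wild types 1, 3, 4 and 8 and 7.78, 7.74, 7.74 and 7.69 in the mutants. The groups did not overlap, but the gap was small, and the log2 difference of -0.14 (95% interval -0.25 to -0.03) was not called (limma adjusted p = 0.117). Centring of samples on their medians brought a call (-0.23; limma adjusted p = 0.0334), as did removal of the trend with GC percent (-0.22; 0.0345). Tlx3, a homeobox gene of the nociceptor lineage, had 5.68, 5.80, 5.69 and 5.76 log2 CPM in wild types 1, 3, 4 and 8, while mutants 1 to 4 had 5.60, 5.68, 5.59 and 5.47. Its groups did not overlap either, and its difference of -0.15 (95% interval -0.30 to 0.00) was not called under any setting (limma adjusted p = 0.239). Groups failed to overlap in 4 of the 10 members, all lower in the mutant, where 12.4% of all tested genes had groups that did not overlap and 4.92% had such groups with the mutant lower.

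Isl1, the LIM homeodomain partner of Pou4f1, had a difference of the opposite sign. Neither gene was called, and these differences were not tested against each other. Wild types 1, 3, 4 and 8 had 6.13, 6.17, 6.09 and 6.17 log2 CPM of Isl1 and mutants 1 to 4 had 6.06, 6.32, 6.27 and 6.33, so mutants 2, 3 and 4 lay above every wild type and mutant 1 below them. The Isl1 difference was 0.11 (95% interval -0.04 to 0.26; limma adjusted p = 0.402). It was 0.17 without mutant 1 and 0.015 with samples centred on their medians. Pou4f3, known best from auditory hair cells, differed by 0.11 (95% interval -0.14 to 0.37) and Pou4f2, known best from retinal ganglion cells, by -0.07 (95% interval -0.29 to 0.16). Wild types 1 and 3 had more Pou4f3 than wild types 4 and 8, at 5.04 and 5.29 against 4.73 and 4.75 log2 CPM, and the mutants at 4.94 to 5.19 lay within that range. Leaving out wild type 3 gave a Pou4f3 difference of 0.23, and leaving out wild type 4 gave 0.04. For Pou4f2 the wild types lay within the mutants' range of 4.27 to 4.72, and its difference was -0.15 without mutant 2 and -0.003 without mutant 4.

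The factors of touch and muscle-sense neurons did not pass the test in either direction. Runx3, the runt factor of proprioceptors, was at 3.29 to 3.55 log2 CPM in wild type and 3.19 to 3.54 in the mutant. Its difference of -0.01 (95% interval -0.28 to 0.26) had no stable sign: it was 0.04 on centring to pan-neuronal genes and 0.07 without mutant 4. Etv1, an ETS factor that muscle-sense neurons need to connect to motor neurons, was at 5.98 to 6.27 in wild type and 5.89 to 6.11 in the mutant, a difference of -0.15 (95% interval -0.31 to 0.01; limma adjusted p = 0.278). Shox2, a homeobox gene that promotes TrkB-bearing touch neurons, had 4.33, 4.56, 4.30 and 4.65 log2 CPM in wild types 1, 3, 4 and 8, while mutants 1 to 4 had 4.80, 4.63, 4.62 and 4.83. Wild type 8 reached above mutants 2 and 3, and the difference of 0.26 (95% interval 0.04 to 0.48) was not called (limma adjusted p = 0.157). No member was called higher by limma or by voom on the recovered reads, and Shox2 was the only member higher at an unadjusted p under 0.05, which 14.1% of all tested genes were. Rsrc1 shares 153 exonic bases with Shox2 on the other strand and had 231 to 371 reads per library against 125 to 197 for Shox2.

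**Figure D2:**
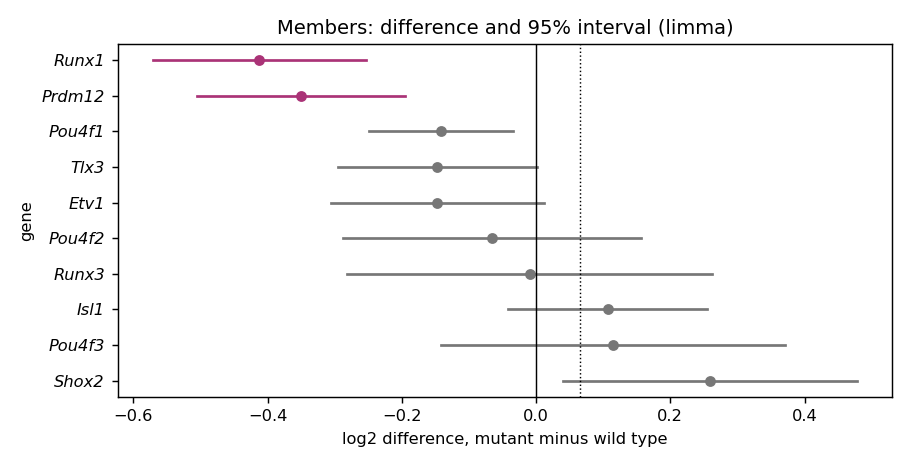
Log2 difference of each member, mutant minus wild type, with its 95% interval from limma; purple marks an adjusted p under 0.05, the solid line is 0 and the dotted line the median of all tested genes, 0.07. Runx1 (-0.41) and Prdm12 (-0.35) lie farthest to the left, and Shox2 (0.26) farthest to the right.

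Of the 10 members, 2 were called, both lower, where 2.64% of all tested genes were called lower. A difference below 0 was found in 7 members and in 35.6% of all tested genes. The median difference of the 10 was -0.10, against 0.07 for all tested genes. With samples centred on their medians or with the GC trend removed, 3 members were called lower, while lower calls over the whole table went from 397 to 706 and 735. With no variance trend 0 members were called, against 75 lower genes over the whole table.

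Ratios within a library do not depend on how libraries are scaled, and showed which members moved relative to each other. Runx1 amounted to 72.4%, 74.1%, 68.1% and 68.1% of the Pou4f1 CPM in wild types 1, 3, 4 and 8 and to 55.7%, 64.2%, 63.9% and 51.3% in the mutants, so that the groups did not overlap. Prdm12 amounted to 50.2% to 60.3% of Pou4f1 in wild type and 43.8% to 51.8% in the mutant, where mutant 3 lay above wild type 8. Shox2 amounted to 8.13% to 10.4% and 11.4% to 13.6%, also without overlap, and in the opposite direction. Pou4f1 itself was lower in every mutant, at a mean of 213 CPM against 235 in wild type. A gene that did not change would thus rise as a share of it, and in log2 CPM the Shox2 groups overlapped. Isl1 went from 29.9% ± 1.5 to 35.6% ± 3.6 of Pou4f1 (SD, n = 4 each), with mutant 1, at 30.4%, inside the wild-type range. Tlx3 and Etv1 kept nearly the same ratio, at 22.5% ± 1.4 against 22.4% ± 1.1 and 29.6% ± 2.5 against 29.5% ± 1.7. Taken against Runx1 itself, Prdm12 stood at 73.7% to 83.3% in wild type and 78.2% to 85.4% in the mutant, with overlap. Runx3 stood at 5.77% to 7.01% and 7.80% to 9.31%, without overlap. These ratios are descriptions of genes whose changes had been seen, and were not tested.

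**Figure D3:**
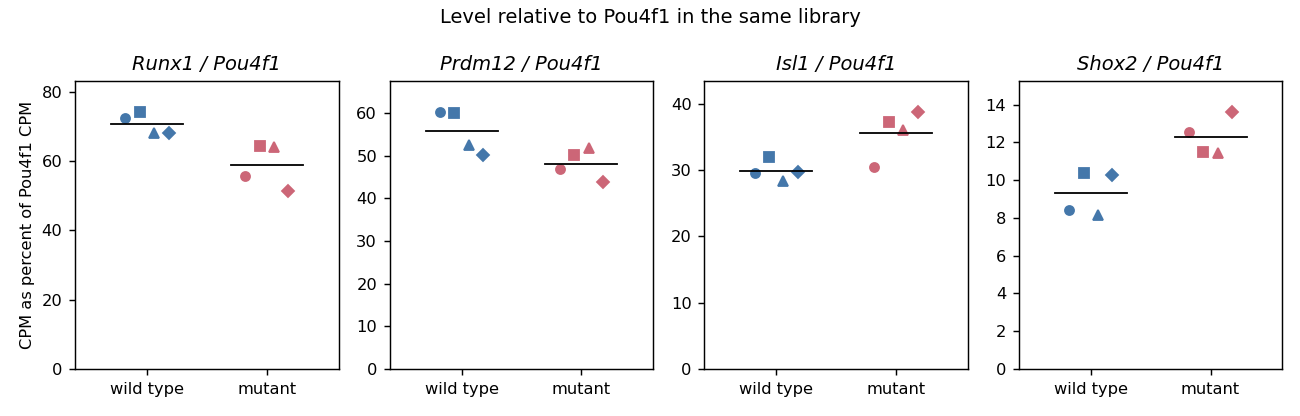
CPM of Runx1, Prdm12, Isl1 and Shox2 as a percent of the CPM of Pou4f1 in the same library, by genotype, with the group mean as a line; each axis starts at 0. Runx1 is lower in all 4 mutants than in any wild type and Shox2 higher, while Prdm12 and Isl1 overlap. Pou4f1 itself is lower in every mutant.

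Levels of different genes were compared per kilobase of exon, using the union of exons in GENCODE M21. On this scale Pou4f1 and Prdm12 were the most abundant members, at medians over the 8 libraries of 47.4 and 46.8 CPM per kb, and their ranges overlapped. Prdm12 was at 52.9 ± 3.83 CPM per kb in wild type, beside 50.3 ± 1.6 for Pou4f1, and at 41.5 ± 3.48 in the mutant, beside 45.6 ± 1.04 (SD, n = 4 each). Tlx3 came next at 33.3, then Isl1 at 18.1, then Pou4f3 at 13.2 and Runx1 at 12.4 with overlapping ranges. Shox2 at 7.36 and Pou4f2 at 6.85 overlapped, Etv1 stood at 4.95, and Runx3 was lowest at 2.14. Runx1 and Etv1 have exon unions of 12025 and 13296 bases summed over isoforms, and division by a shorter transcript would give higher values.

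**Figure D4:**
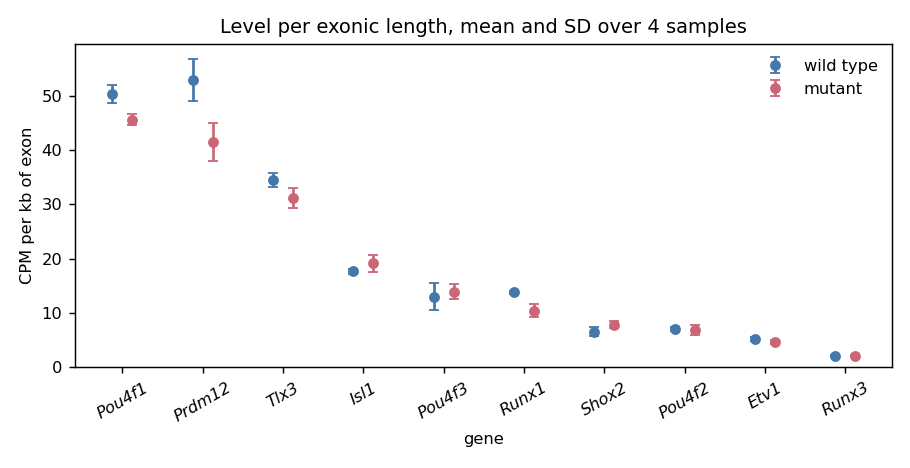
Mean level of each member in CPM per kb of exon, wild type and mutant, with SD over 4 samples; genes are ordered by their median over all libraries. Pou4f1 and Prdm12 lead in both genotypes, and Prdm12 exceeds Pou4f1 in the wild-type mean and lies under it in the mutant mean.

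Other transcription factors of sensory lineages were read from a list of 49 genes present in the table, of which 43 were tested. Among them 7 fell and 0 rose, that is 16.3% called lower against 2.64% of all tested genes. The list was chosen with earlier results of these data known, so its share is not independent evidence. At an unadjusted p under 0.05, 13 were lower and 6 higher, that is 30.2% and 14.0% of the list against 7.21% and 14.1% of all tested genes, and voom also called 7 lower and 0 higher. The list's median difference was -0.02, against 0.07 for all tested genes. A difference below 0 was found in 24 of the 43, and in 35.6% of all tested genes. The genes that fell were Isl2, Prdm8, Zfhx2, Zfhx3, Casz1, Ebf3 and Tshz2. Isl2, the LIM homeodomain paralog of Isl1, went from 7.91, 7.88, 7.67 and 7.95 log2 CPM in wild types 1, 3, 4 and 8 to 7.40, 7.42, 7.60 and 7.37 in the mutants, a difference of -0.41 (SE 0.0698; limma adjusted p = 0.00436). Isl1, which was not called, and Isl2 had differences of opposite sign, and these were not tested against each other. Prdm8, a relative of Prdm12, went from 4.02 to 4.25 in wild type to 3.37 to 3.62 in the mutant, a difference of -0.59 (SE 0.111; limma adjusted p = 0.00721), and was called in all 22 alternatives. Zfhx2, a homeobox and zinc finger gene whose mutation in people is known to blunt pain, differed by -0.69 (SE 0.151; limma adjusted p = 0.0163).

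The size of that count rested on single libraries. It was 2 without wild type 1, 3 without mutant 1, 4 without mutant 4, 3 on centring to pan-neuronal genes and 1 with no variance trend. Casz1, a zinc finger gene at -0.44, kept its call in 8 of 22 alternatives, and Zfhx3, at -0.43, in 13. The limma adjusted p of Casz1 rose to between 0.0575 and 0.147 when any library but mutant 3 was left out, and without mutant 4 its difference was -0.29. For Zfhx3 it lay between 0.0594 and 0.111 when wild type 1, 3 or 4 or mutant 1 was left out. Ebf3, a helix-loop-helix factor at -0.30, and Tshz2, a zinc finger gene at -0.36, each kept it in 14. That of Tshz2 lay between 0.0555 and 0.0808 when wild type 1 or 8 or mutant 1 or 4 was left out, and that of Zfhx2 was 0.0595 without wild type 1. The limma adjusted p of Ebf3 lay between 0.0513 and 0.0662 when wild type 1 or 3 or mutant 1, 2 or 4 was left out. Runx2, the remaining runt gene, was at 2.80 to 2.96 in wild type and 1.95 to 2.69 in the mutant and was not called (-0.48; limma adjusted p = 0.143). Tlx2, the paralog of Tlx3, differed by -0.03 (0.889).

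Proteins that bind the members were read from a list of 16, all tested. Ldb2 and Tle1 fell, 0 rose by limma or voom, and 14 did not pass. That is 12.5% called lower, against 2.64% of all tested genes, and the median difference of the list was 0.01. This list too was chosen with earlier results of these data known. Ldb2, a co-factor that bridges LIM homeodomain proteins such as Isl1, had 6.73, 6.69, 6.73 and 6.78 log2 CPM in wild types 1, 3, 4 and 8, while mutants 1 to 4 had 6.07, 6.26, 6.39 and 5.97. The groups lay well apart, at a difference of -0.56 (SE 0.0814; limma adjusted p = 0.00161), and Ldb2 was called in all 22 alternatives. Its close relative Ldb1 differed by 0.03 (0.856). Tle1, a Groucho corepressor recruited by runt factors, differed by -0.24 (limma adjusted p = 0.0372). Tle1 kept its call in 12 alternatives, and leaving out any library except wild type 4 and mutant 3 gave limma adjusted p values from 0.0709 to 0.104. Cbfb, the shared partner of the runt proteins, was at 7.45 to 7.64 in wild type and 7.62 to 7.92 in the mutant and was not called (0.17; limma adjusted p = 0.181).

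The genes whose profile over the 8 libraries lay nearest to a called member were sought among the 59 tested genes of these lists, by the root mean square difference of log2 deviations from each gene's own mean. Nearest to Runx1 were Tshz2 at 0.066, Ldb2 at 0.091 and Isl2 at 0.104, where Runx1 itself deviated by 0.232. Nearest to Prdm12 were Ebf3 at 0.089, Tshz2 at 0.094 and Tle1 at 0.101, where Prdm12 deviated by 0.201. The measure includes the difference between genotypes, so a gene near to a member that fell was bound to be lower too.

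Genes known to depend on Runx1 or Tlx3 in nociceptors were read from a list of 13, all tested. Of these 8 fell and 0 rose by limma, with 7 lower and 0 higher by voom. That is 61.5% called lower, against 2.64% of all tested genes, and the median difference was -0.49 against 0.07. Members of the list were known to be lower in these samples when it was drawn up, so its direction is not independent evidence. Mrgprd, the receptor that marks the main nonpeptidergic class, had 8.04, 8.17, 8.0 and 7.90 log2 CPM in wild types 1, 3, 4 and 8, while mutants 1 to 4 had 6.97, 7.32, 7.61 and 6.84. Every mutant lay below every wild type, and mutant 4 was lowest, as in Runx1. Scn11a, the sodium channel Nav1.9, went from 9.83 to 9.98 in wild type to 8.85 to 9.49, a difference of -0.71 (SE 0.102; limma adjusted p = 0.00157). Ret, the GDNF-family receptor kinase, differed by -0.31 (SE 0.0614; limma adjusted p = 0.00994).

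The other genes of that list did not move as a block. Trpm8, the cold receptor, was at 5.67 to 6.06 in wild type and 6.08 to 6.42 in the mutant, higher in every mutant, and was not called (0.31; limma adjusted p = 0.0670). Th and Slc17a8, markers of C-fibre touch neurons, differed by 0.14 (0.396) and -0.04 (0.892). Mrgprb4 and Mrgprb5 differed by -0.60 (0.165) and -0.45 (0.332). P2rx3, Gfra2, Mrgprx1, Mrgpra3 and Trpa1 fell. With no variance trend 0 of the 13 were called, and the Mrgpr genes belong to a family of close paralogs whose reads can be split. The call of Mrgpra3 ended when wild type 1 or 8 or mutant 1, 2 or 4 was left out (limma adjusted p from 0.0570 to 0.115), and that of Trpa1 when wild type 3 or 8 or mutant 2, 3 or 4 was (0.0636 to 0.0902).

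**Figure D5:**
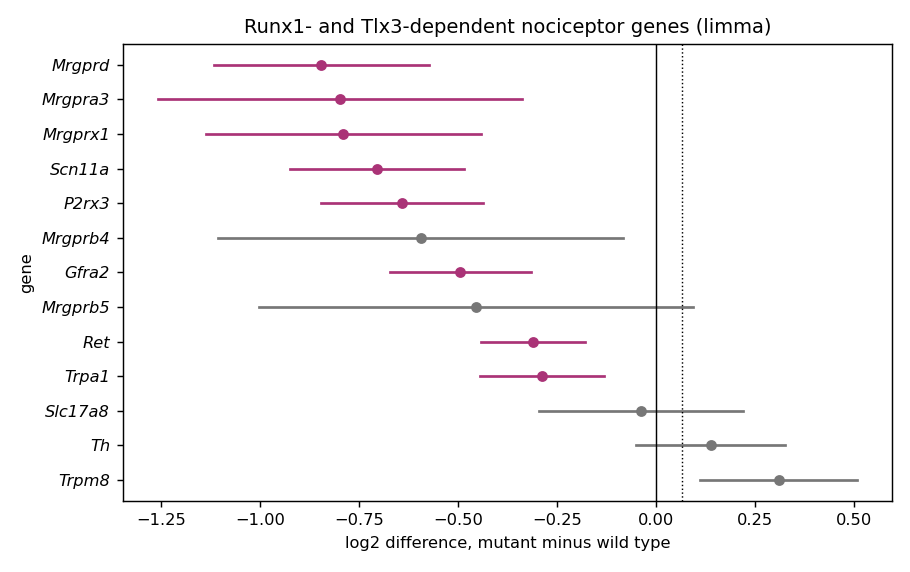
Log2 difference, mutant minus wild type, with 95% interval from limma, for 13 genes known to depend on Runx1 or Tlx3; purple marks an adjusted p under 0.05, the solid line is 0 and the dotted line the median of all tested genes. Of the 13, 8 are called lower, and Th and Trpm8 are to the right of 0.

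Receptors and effectors that mark the lineages of the members gave 1 call among 7 genes, that of Ret. Ret had already been counted among the Runx1- and Tlx3-dependent genes. That is 14.3% called lower, against 2.64% of all tested genes. Ntrk3, the receptor of muscle-sense neurons kept by Runx3, differed by 0.04 (95% interval -0.12 to 0.19). Its sign turned under some settings. Ntrk2, which encodes TrkB, differed by 0.20 (limma adjusted p = 0.0903) and was called without mutant 3 (0.25; 0.0341), on quantile normalization (0.0352) and on centring to pan-neuronal genes (0.0456). Pvalb, a calcium-binding protein of muscle-sense neurons, was at 5.10 to 5.47 in wild type and 5.53 to 5.94 in the mutant and was not called (0.31; 0.0970). Calca and Tac1, peptides of the peptidergic class that Runx1 holds down, differed by 0.00 and 0.10 (0.995 and 0.600), and Ngfr by -0.08 (0.532).

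Markers of neurons and of other cells were read in the same libraries, and some of them were called. Of all tested genes, 2.81% were called higher and 2.64% lower. Pan-neuronal genes summed to 8368 to 9331 CPM in wild type and 8603 to 9436 in the mutant, with 1 of 10, Syt1, called lower. Their median difference was -0.06, against 0.07 for all tested genes. At an unadjusted p under 0.05, 30% of them were lower and 10% higher, against 7.21% and 14.1% of all tested genes. On centring to the pan-neuronal genes Runx1 differed by -0.36 (limma adjusted p = 0.0231) and Prdm12 by -0.30 (0.0514). In that setting 3 of the other lineage factors were called in place of 7. Ganglion-neuron markers summed to 6355 to 6694 and 5342 to 5861 CPM, without overlap, with Avil and Scn10a, 2 of 7, called lower. At an unadjusted p under 0.05, 4 of these 7 were lower and 0 higher. Myeloid cells express Runx1 too, and their 8 markers summed to 33.7 to 50.7 CPM in wild type and 41.0 to 71.6 in the mutant. These sums overlapped, and Cd163, 1 of 7 tested, was called higher. Lymphocytes express Runx3, and their 8 markers summed to 1.59 to 2.37 and 2.29 to 3.70 CPM, with Cd3e, Cd3g, Nkg7 and Gzma at 0 to 2 reads in every library. Satellite glia markers summed to 598 to 664 and 681 to 912 CPM, without overlap, with Glul, 1 of 5, called higher. Of 7 myelin markers 2, Ncmap and Drp2, were called higher, as was Dcn, 1 of 5 fibroblast markers. Of 22 alternatives, Avil kept its call in 13, Drp2 and Cd163 in 17, Syt1 in 18 and Scn10a and Dcn in 20. Glul kept it in 21 and Ncmap in 22. The fibroblast sums were 524 to 963 and 706 to 1012 CPM, and the myelin sums 2428 to 3179 and 2872 to 3471 CPM. At an unadjusted p under 0.05, 3 of 5 satellite glia, 4 of 7 myelin, 3 of 5 fibroblast and 2 of 7 myeloid markers were higher. In each of these lists 0 were lower, and 14.1% of all tested genes were higher at that threshold. Endothelial markers summed to 39.8 to 62.7 and 43.6 to 68.9 CPM and central nervous system markers to 23.3 to 60.1 and 31.3 to 56.9 CPM, with none of these 2 lists called by limma or voom and 1 gene of each higher at an unadjusted p under 0.05. The part of these markers in the differences of the members was not tested.

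Mutant 4 was the lowest mutant in 6 of the 10 members: Runx1, Prdm12, Tlx3, Pou4f1, Pou4f2 and Runx3. Among wild types, sample 4 was lowest in 6 and sample 8 highest in 5. Skeletal muscle markers summed to 155 CPM in mutant 4, against 10.5 to 44.8 in the other mutants and 3.49 to 32.9 in the wild types. None of the 5 tested muscle genes was called by limma or voom, and 4 were higher at an unadjusted p under 0.05. Their part in the values of mutant 4 was not tested. Without mutant 4, Runx1 differed by -0.34 (limma adjusted p = 0.00650) and Prdm12 by -0.29 (0.0284), so both kept their call.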

How the data were processed

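Values are log2 CPM as deposited by the authors, with a small prior count, per the table's values. The submitters' processing notes name Salmon 0.11.1, DESeq2 and mm9 without a role; strand use is not given. The same table gave GC percent per gene, a deposited annotation value. Of 41422 lines, 40800 distinct identifiers were used once each. After the shared floor of -1.79 was subtracted, 100% of values were whole reads (tolerance 0.01), which gave library totals; 1 read was worth 0.125 to 0.162 CPM. Of the totals, 0.0951% to 0.103% lay outside the listed genes. Genes above 0 log2 CPM in at least 4 of 8 samples were tested with limma 3.58.1 in R 4.3.3 (eBayes with trend, two-sided, no covariate, Benjamini-Hochberg), and a call is an adjusted p under 0.05. The procedure was tested on simulated data, whose planted changes were larger than those of Runx1 and Prdm12. Members and lists (sensory transcription factors, partner proteins, Runx1- and Tlx3-dependent genes, class receptors, markers) were chosen with earlier results of these data known. Named are all members, called list genes, the class receptors and the 3 nearest profiles per called member; other list genes named were picked after their values were seen. Coordinates and exon lengths are from GENCODE M21 (GRCm38), promoters from RefSeq; neither is the mm9 build named. Replicates differed beyond sampling noise (chi-square per gene 2.61 to 6.64). Python 3.11.15, numpy 2.4.6, pandas 2.3.3 and matplotlib 3.10.9 were used. Some genes of the lists are not reported here and were left out of the lists' counts and sums.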

Additional observations from a re-analysis of the deposited data

Results flagged for a closer look

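Of 84 sets of 4 libraries examined, 4 contained an isolated value, and chance alone isolates about 1 in 20. Mutant 4 stood apart in Zfhx2, at 5.37 log2 CPM against 6.08 to 6.19 in the other mutants, and in Zfhx3, at 8.05 against 8.55 to 8.64. Wild type 8 stood apart in Mrgpra3, at 5.21 against 4.16 to 4.33, and in P2rx3, at 7.40 against 7.58 in each of the others. No member among the 10 transcription factors had such a sample in either genotype.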

How the results depend on the processing

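Over 22 alternatives Runx1 was called in 21 and Prdm12 in 19. Genes higher and lower in the mutant, 423 and 397 as reported, were 204 and 706 under median centring, 229 and 735 with the GC trend removed, 670 and 233 on centring to pan-neuronal genes, 67 and 75 with no variance trend, and 876 and 612 at an adjusted p under 0.1; quantile normalization gave 271 higher. With 1 sample left out the ranges were 174 to 572 higher and 230 to 427 lower, members called lower 1 to 2, and other lineage factors called lower 2 to 8. Higher genes were fewest without wild type 1 (174), mutant 1 (183), mutant 4 (206), wild type 3 (226) and mutant 2 (266), and lower genes without wild type 1 (230). Members called lower were 1 on pan-neuronal centring and 0 with no variance trend, which left 0 of the Runx1- and Tlx3-dependent genes and 1 other lineage factor; on pan-neuronal centring 3 such factors remained. Centring shifts calls by construction, and the cause of the loss with no variance trend was not tested.

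Samples share the numbers 1, 3 and 4 across genotypes, and their deviations correlated at 0.081, 0.041 and 0.058, so the numbers do not pair them; 1 of 6 samples correlated best with its own number. A fit with the replicate block gave 326 higher and 345 lower genes and 2 members called lower, and called Pvalb higher (0.40; limma adjusted p = 0.0451). Of the Runx1- and Tlx3-dependent genes, 8 as reported, 5 were called lower in these 6 libraries with the block and 5 without it. The same 6 libraries with no block gave 180 higher genes and 4 other lineage factors called lower.

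Signs turned for genes near 0. With samples centred on pan-neuronal genes Runx3 was 0.042 and Calca 0.051; quantile normalization gave 0.045 for Calca. Ntrk3 was -0.056 under median centring and -0.042 with the GC trend removed, and with Xist as a covariate Runx3 was 0.011 and Calca 0.0077. That covariate ended the calls of Zfhx3 (limma adjusted p = 0.0510), Casz1 (0.0707), Mrgpra3 (0.0655) and Trpa1 (0.0508), leaving 5 other lineage factors and 6 dependent genes. With 1 sample left out, values ran from -0.059 to 0.067 for Runx3, -0.0092 to 0.11 for Ntrk3, -0.045 to 0.036 for Calca and -0.022 to 0.17 for Tac1.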

Other observations

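Factors that act while sensory neurons are being born were near the floor of detection in these adult ganglia. Neurog1 had 0 to 5 reads per library, Neurog2 0 to 1, Neurod4 0 to 2 and Neurod6 none, which allows up to 0.485 CPM in the shallowest library (3 reads; counting error only). Neurod1 had 4 to 8 reads in either genotype. Among factors kept in the adult, Onecut2 was at 7.24 to 7.40 log2 CPM in wild type and 7.21 to 7.41 in the mutant, and Klf7 at 8.71 to 8.84 and 8.51 to 8.72; neither was called. Nfia, a factor of glial lineages, was at 7.51 to 7.54 in wild type and 7.64 to 7.81 in the mutant, without overlap, and was not called (0.18; limma adjusted p = 0.0710).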
